A study of Tupaia belangeri with 15 samples.

Results

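The nuclei described here are the SPP1-positive retinal ganglion cells (RGCs) of the tree shrew (TS) retina. They were chosen by UMIs (unique molecular identifiers, each standing for 1 captured transcript): nuclei with more than 200 and fewer than 6000 detected genes and under 5% mitochondrial counts, with 2 or more UMIs of SPP1, at least 1 of RBPMS, at least 1 of SLC17A6 and 0 of ARR3. RBPMS is an RNA-binding protein of RGCs, SLC17A6 is the vesicular glutamate transporter that RGCs use, and ARR3 is cone arrestin, a cone product. This rule found 208 nuclei. They were 208 of the 3782 nuclei with RBPMS and SLC17A6 and no ARR3 (the RGC gate) and of the 119765 nuclei that passed the limits on genes and mitochondrial counts. Of the other gated RGCs, 3216 had 0 SPP1 UMIs (SPP1-0 RGCs) and 358 had 1.

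The study profiled single nuclei of 15 TS (*Tupaia belangeri*) retinas, 5 each from infancy, mature and senile animals, with a droplet method that counts the 3′ ends of transcripts. Infant animals were aged between 1.4 and 2.1 months. Mature ones were between 24.96 and 36 months old, and senile ones between 85.8 and 86.56. The animals were described as healthy, no treatment or genotype separated the groups, and the question was how retinal cells differ between these stages. The senile animals came from another institution than the infant and mature ones, so stage and source cannot be told apart. The retinas were frozen before the nuclei were taken, no age is tied to a single retina here, and each retina gave 1 library.

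SPP1 encodes osteopontin, a secreted phosphoprotein best known from bone and from immune cells, which binds integrins and CD44. In the mouse retina it marks alpha RGCs, a family of RGCs with large somata, thick, neurofilament-rich axons and fast responses, which survive optic nerve injury better than most RGCs and can regrow axons when growth signalling is raised. Alpha RGCs of the mouse are further told from other RGCs by NEFH, the heavy neurofilament subunit, and by KCNG4, a modulatory potassium channel subunit, while subtypes within the family differ in markers such as TBR1, a T-box transcription factor.

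The libraries held 13429873 to 58734300 UMIs over 4269 to 9856 barcodes. They fell into 2 sets that the labels separate by the Cell Ranger version named for them. In the 7 libraries labelled 5.0.1 (Infancy 1 to 3, Mature 1 and 2, Senile 1 and 2) gated RGCs were 4.82% to 6.53% of nuclei. In the 8 labelled 7.0.1 they were 0.306% to 2.34%, and ARR3 removed 56.8% of the nuclei with RBPMS and SLC17A6, against 14.3% in the first set. Of the 208 SPP1-positive RGCs, 196 came from the 7 libraries and 12 from the other 8, none of which held more than 4. Comparisons of gene levels therefore rest on the 7 retinas, and only the share of SPP1-positive RGCs uses all 15. Of 117976 distinct barcodes 1768 occurred in more than 1 library. That was so for 10 of the barcodes of SPP1-positive RGCs, and no barcode was an SPP1-positive RGC in 2 libraries. A doublet caller marked 9 of the 208 nuclei.

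SPP1 itself was low in most of these nuclei. It chose them, so its values are given with no test. The median was 2 UMIs, the minimum of the rule, and the highest was 19. There were 125 nuclei (60.1%) with exactly 2 UMIs, 83 with 3 or more and 18 with 6 or more, while 358 RGCs stood just outside the rule at 1 UMI. Levels are given from here on as CPM, the gene's share of all UMIs of the same group of nuclei on the usual scale, for 3′ counts that are not scaled by gene length. SPP1 reached 297 CPM in the SPP1-positive RGCs of Infancy 1, 434 in Infancy 2, 493 in Infancy 3, 340 in Mature 1, 306 in Mature 2, 329 in Senile 1 and 675 in Senile 2. The retinas of the 3 stages overlapped. A minimum of 2 UMIs is a larger share of a shallow nucleus. Senile 2 had the shallowest SPP1-positive RGCs of these retinas, with a median of 4586 UMIs. The 208 nuclei held 638 of the 3059 SPP1 UMIs of all nuclei that passed.

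Nuclei of other classes, gated by their own markers with RBPMS and SLC17A6 at 0, gave the background. In the 7 retinas at least 1 SPP1 UMI was found in 16.2% of gated RGCs, in 2.70% of amacrine nuclei, 1.90% of astrocyte nuclei, 1.56% of microglial nuclei, 0.926% of horizontal nuclei (1 of 108), 0.679% of bipolar nuclei, 0.600% of Müller nuclei, 0.560% of rod nuclei and 0.5002% of cone nuclei. The RGCs were deeper than these classes. After every nucleus was thinned to 2000 UMIs, with shallower nuclei left out, the share was 7.77% in RGCs, 3.65% in astrocyte nuclei (5 of 137), 2.33% in amacrine nuclei, 1.37% in horizontal nuclei (1 of 73) and 0.361% in cone nuclei. Amacrine nuclei stood above cone nuclei on both scales. At the minimum of 2 UMIs, the unthinned shares were 6.07% in gated RGCs and 0.452% in amacrine nuclei (61 of 13506), and the thinned shares 1.51% and 0.316%. In the 8 libraries labelled 7.0.1 the thinned share with at least 1 SPP1 UMI was 0.917% in gated RGCs (5 of 545). Astrocyte nuclei were at 1.24% there (5 of 402), horizontal nuclei at 0.54% and amacrine nuclei at 0.425%. None of these 545 thinned RGCs held 2 or more, and unthinned the share was 2.17%.

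The label of alpha-like cells was checked against genes that the rule did not use. SPP1-positive RGCs were compared with SPP1-0 RGCs of the same retina by edgeR's quasi-likelihood test on UMIs summed per retina, with the retina as a block. Over 8458 features, 911 passed an adjusted p of 0.05, or 10.8% of those tested, with 372 higher (4.4%) and 539 lower (6.37%) in SPP1-positive RGCs. The higher were 203 of 1294 with no filter on low counts and 188 of 708 with 3 or more SPP1 UMIs. The median log2 difference over all features was -0.0031. Without regard to the test, 349 features (4.13%) were higher and 437 (5.17%) lower in every one of the 7 retinas. Of 14 genes listed for alpha RGCs 6 could be tested: 5 were higher, NEFH, NEFM, PVALB, IL1RAPL2 and TBR1, and CALB2 was lower, with a median of 1.58 on the log2 scale. The study used IL1RAPL2 on these samples to assign 1 of its clusters a cell type, so its direction is not independent evidence. SPP1-positive RGCs were also the deeper nuclei. Their median was 4586 to 8802 UMIs per retina, against 3097 to 6147 in SPP1-0 RGCs. The part of depth was tested in 1 way: with both groups limited to nuclei between the quartiles of the SPP1-positive nuclei's depth, 396 features passed, and only 3 genes of the alpha list could be tested, of which 2 were higher and 1 lower.

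NEFH, which gives large axons their heavy neurofilament, was higher in SPP1-positive RGCs of 7 of 7 retinas. Its level was 58.2 CPM in Infancy 1, 72.0 in Infancy 2, 123 in Infancy 3, 38.5 in Mature 1, 76.4 in Mature 2, 56.7 in Senile 1 and 56.3 in Senile 2, while SPP1-0 RGCs of the same retinas lay between 15.1 and 23.2. The groups did not overlap, and Infancy 3 stood highest. The log2 difference was 1.85 ± 0.21 (SE, n = 7 retinas, edgeR adjusted p = 1.73e-08). NEFM, the medium neurofilament subunit, stood at 177 ± 57.2 CPM (SD, n = 7) against 98.7 ± 13.1, a log2 difference of 0.82 ± 0.13 (adjusted p = 2.02e-05). PVALB, the calcium buffer parvalbumin, stood at 91.4 ± 30.4 CPM against 31.9 ± 7.35 (1.51 ± 0.18, adjusted p = 5.02e-08), also higher in 7 of 7 retinas. CALB2, the calcium buffer calretinin, went the other way, at 79.7 ± 35.2 CPM against 126 ± 30.0 (log2 difference -0.68 ± 0.15, adjusted p = 0.0012), a call that was lost without the retina as a block.

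Other genes of the alpha list were too low for the test. KCNG4 had 23 UMIs in 196 nuclei, 15.3 CPM pooled, against 3.33 CPM in SPP1-0 RGCs. At least 1 KCNG4 UMI was found in 10.2% of SPP1-positive RGCs and 1.63% of SPP1-0 RGCs, but also in 11.4% of bipolar and 26.9% of horizontal nuclei, so the gene was not particular to RGCs in these retinas. EOMES, a T-box factor of intrinsically photosensitive RGCs, was at 14.0 CPM pooled against 5.16, and it was at 0 in Mature 2 and Senile 1. OPN4, the photopigment of those cells, had no UMI in the 196 nuclei. It had only 2 UMIs in the 2706 SPP1-0 RGCs (0.131 CPM), so its absence does not set the SPP1-positive RGCs apart. NEFL and KCNA1 did not pass the filter on low counts, and SCN4B was at 0 in both groups. FES was not among the feature names.

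**Figure D1:**
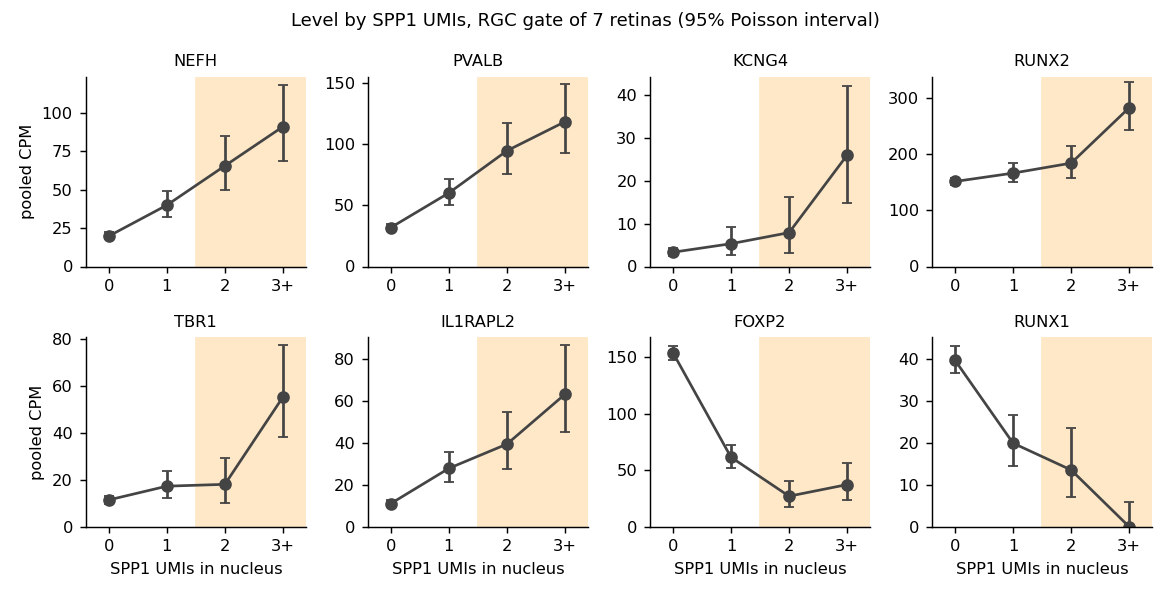
Pooled level in CPM (y axis) of 8 genes in gated RGCs of 7 retinas with 0, 1, 2 or 3 and more SPP1 UMIs (x axis), with 95% Poisson intervals that cover counting error only. The shaded columns are the SPP1-positive RGCs. NEFH went from 19.8 to 91.0 CPM across the 4 columns and FOXP2 from 154 to 37.4.

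Levels at each number of SPP1 UMIs are a description, since these nuclei share retinas and deeper nuclei hold more UMIs of every gene. The 4 columns hold 2706 RGCs with 0 SPP1 UMIs, 327 with 1, 115 with 2 and 81 with 3 or more. They also differ in their mix of retinas and stages, which was not held equal. Infancy 2 gave 422 of the 2706 nuclei and 34 of the 81. NEFH stood at 19.8, 39.9, 65.5 and 91.0 CPM in them and KCNG4 at 3.33, 5.32, 7.91 and 26.0 CPM. FOXP2, a forkhead factor that marks a group of small RGCs in the mouse, ran from 154 CPM to 61.6, 27.1 and 37.4. RGCs with 1 UMI, just outside the rule, lay between the 2 groups for all 3 genes. TBR1 stood at 11.4, 17.3, 18.1 and 55.3 CPM, and SLIT2, a ligand of ROBO receptors, at 230, 279, 299 and 95.9, so that it was lowest in nuclei with 3 or more. RUNX1, a factor of another RGC subtype, ran from 39.8 to 20.0 and 13.6, and had no UMI in the 81 nuclei with 3 or more.

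Receptors, a neuropeptide and transcription factors were among the 12 named genes that were most raised in SPP1-positive RGCs. The highest log2 difference among them was that of SST, the neuropeptide somatostatin. It stood at 46.6 CPM in Infancy 1, 221 in Infancy 2, 123 in Infancy 3, 77.0 in Mature 1, 123 in Mature 2, 147 in Senile 1 and 300.1 in Senile 2. SPP1-0 RGCs lay between 1.61 and 14.7 CPM, so the groups did not overlap, and Infancy 1 was the lowest of the SPP1-positive retinas. The log2 difference was 4.16 ± 0.22 (n = 7, adjusted p = 1.85e-16). At least 1 SST UMI was found in 32.1% of SPP1-positive RGCs, 12.2% of RGCs with 1 SPP1 UMI, 2.81% of SPP1-0 RGCs and 0.681% of amacrine nuclei, a class in which somatostatin cells are known.

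IL18R1, a subunit of the interleukin-18 receptor, followed, with 77.0 ± 51.4 CPM against 7.65 ± 6.64 (log2 difference 3.27 ± 0.29, adjusted p = 1.78e-10). It was higher in 6 of 7 retinas and at 0 in the 20 SPP1-positive nuclei of Infancy 1, where SPP1-0 RGCs were at 1.12 CPM. Senile 2 was highest, at 169 CPM. TACR3, the receptor for neurokinin B, ranged from 34.92 to 75.02 CPM in SPP1-positive RGCs and from 8.06 to 16.0 in SPP1-0 RGCs, with no overlap (2.17 ± 0.25, adjusted p = 5.02e-08). ADRB1, the beta-1 adrenergic receptor, was at 110 ± 35.5 CPM against 27.7 ± 8.94 (1.89 ± 0.17, adjusted p = 1.78e-10).

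SYT2, a fast calcium sensor of transmitter release, ranged from 69.8 to 164 CPM in SPP1-positive RGCs and from 22.2 to 39.2 in SPP1-0 RGCs (1.98 ± 0.18, adjusted p = 2.13e-10). It had at least 1 UMI in 54.1% of SPP1-positive RGCs, 12.9% of SPP1-0 RGCs and 1.04% of amacrine nuclei. TLL1, a tolloid-like metalloprotease, stood at 380 ± 102 CPM against 111 ± 24.1 (1.74 ± 0.12). ZBTB7C, a zinc finger factor, was higher by 1.97 ± 0.22 and AHR, the aryl hydrocarbon receptor, by 1.58 ± 0.17. LRRC3B, a leucine-rich repeat membrane protein, was higher by 1.59 ± 0.19. NETO1, an auxiliary subunit of kainate receptors, was higher by 1.62 ± 0.25 in 6 of 7 retinas. NETO1 is also a marker used here for bipolar cells, and had a UMI in 62.3% of bipolar nuclei. All of these passed the test, at adjusted p values of at most 8.31e-06.

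Genes of other RGC subtypes were lower or did not pass. Of 20 listed, 12 could be tested, 0 were higher and 7 were lower, against 6.37% of all features, with a median log2 difference of -1.01. The 7 became 5 with DESeq2 and without the block, and 4 of 7 in the depth-limited comparison. FOXP2 was at 128 CPM in SPP1-positive RGCs of Infancy 1, 19.3 in Infancy 2, 3.42 in Infancy 3, 38.5 in Mature 1, 41.1 in Mature 2 and 0 in both senile retinas, against 120 to 182 CPM in SPP1-0 RGCs. Infancy 1 stood apart here, at nearly the level of its SPP1-0 RGCs (141 CPM). The log2 difference was -2.28 ± 0.29 (adjusted p = 2.02e-07), and -3.08 without Infancy 1. RUNX1 differed by -2.38 ± 0.37, ROBO1, an axon guidance receptor, by -1.36 ± 0.16, EBF2 by -1.38 ± 0.27, IRX4 by -1.53 ± 0.34, CALCRL, the receptor for calcitonin gene-related peptide, by -1.58 ± 0.41 and the cadherin CDH8 by -0.66 ± 0.19. Among genes listed for the parasol and midget RGCs of primates 3 could be tested. TBR1 was higher and 2 were lower, among them POU4F1, a POU factor of RGCs. The 2 became 1 with DESeq2, without the block, with at least 20 nuclei per retina and without any one retina but Infancy 2.

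The naming rule also chose 12 genes that were lower in SPP1-positive RGCs. The contactin CNTN3, an adhesion molecule, was at 132 ± 79.7 CPM against 604 ± 78.3 (log2 difference -2.10 ± 0.16, adjusted p = 3.19e-12), and CHL1, another adhesion molecule, differed by -1.61 ± 0.26. GAP43, a growth cone protein, stood at 26.8 ± 11.96 CPM against 75.6 ± 13.4 (-1.60 ± 0.21, adjusted p = 6.28e-07). ASIC2, a proton-gated channel, differed by -1.84 ± 0.23, and ROR1, a receptor of the tyrosine kinase family, by -1.83 ± 0.23. The transcription factors GLIS3 and TCF4 differed by -1.85 ± 0.22 and -1.61 ± 0.19. STARD13, a GTPase-activating protein, differed by -1.99 ± 0.29 and was at 0 in the 4 mature and senile retinas. SORCS1, a sortilin family receptor, differed by -1.57 ± 0.21 and CSMD1 by -1.56 ± 0.18. The 24 genes that the naming rule chose kept their direction and stayed past the threshold under every alternative in which they could be tested, including without Infancy 1. The depth-limited comparison could test 15 of the 24. SST, IL18R1, IL1RAPL2, TACR3, NEFH, NETO1, ASIC2, ROR1 and STARD13 were not tested there.

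**Figure D2:**
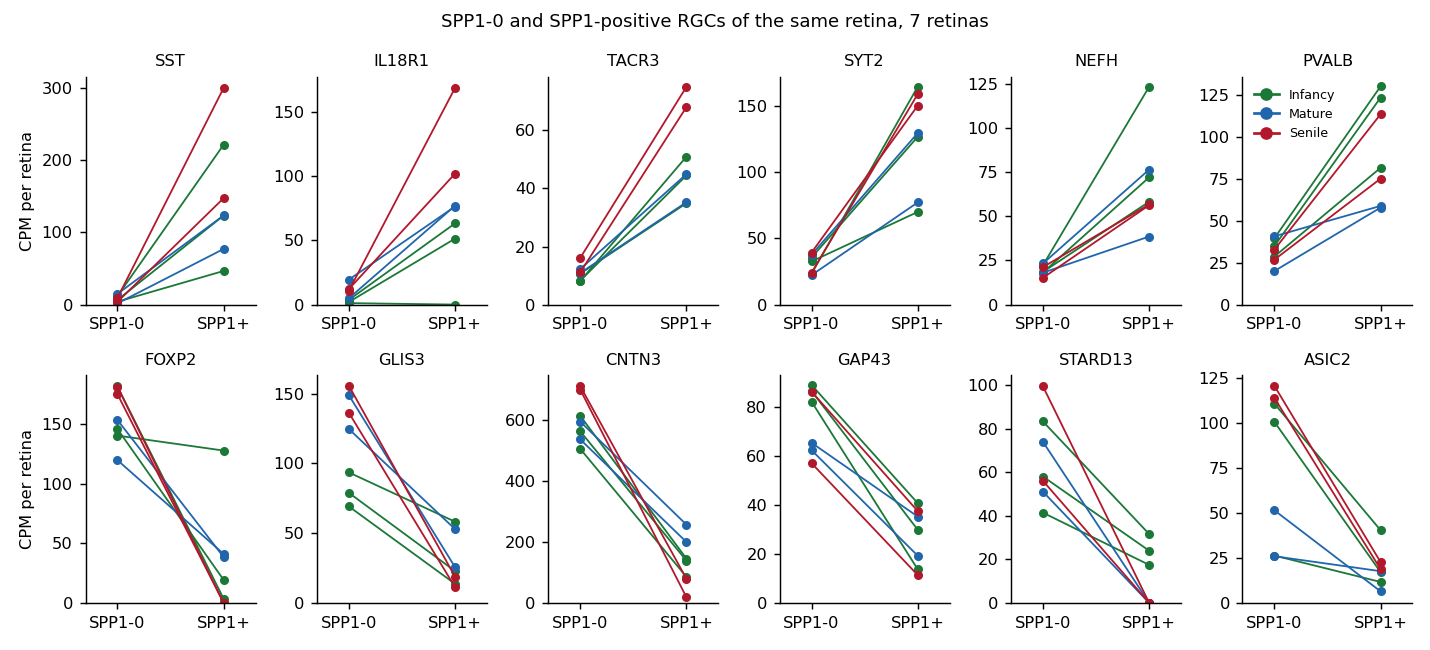
Level in CPM (y axis) of 12 genes in SPP1-0 RGCs and SPP1-positive RGCs (SPP1+) of the same retina, joined by a line, for 7 retinas coloured by stage. SST and NEFH are higher in SPP1-positive RGCs of every retina, IL18R1 is at 0 in Infancy 1, and FOXP2 is 128 CPM in Infancy 1 and at most 41.1 in the others.

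Of 16 genes listed for RGCs in general 13 were tested, of which 4 passed (30.8%, against 10.8% of all features), 2 higher and 2 lower, with a median log2 difference of -0.04. That count was 2 without the retina as a block, 2 of 11 in the depth-limited comparison and 2 with at least 20 nuclei per retina. THY1, a surface glycoprotein of RGCs, stood at 406 ± 155 CPM in SPP1-positive and 397 ± 158 in SPP1-0 RGCs (adjusted p = 0.88), and NRN1, neuritin, at 252 ± 91.0 and 293 ± 87.5 (adjusted p = 0.24). ELAVL4, a neuronal RNA-binding protein, and NSG1, an endosomal protein of neurons, were higher by 0.51 ± 0.11 and 0.52 ± 0.11. POU4F1 was at 25.9 ± 8.59 CPM against 43.9 ± 8.96 (-0.72 ± 0.24, adjusted p = 0.042), and POU4F2 did not pass the filter on low counts.

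The lists of ion channels are read against the 4.4% of all features that were higher and the 6.37% that were lower. Of 7 voltage-gated sodium channel genes tested, 0 were higher and 4 lower, the pore subunits SCN2A (-0.59 ± 0.11) and SCN3A (-0.49 ± 0.11) and the auxiliary subunits SCN2B (-0.49 ± 0.16) and SCN3B (-0.95 ± 0.32). The 4 became 2 with DESeq2, without the retina as a block, and without Infancy 1, 2 or 3 or Senile 1, 1 with at least 20 nuclei per retina, and 1 of 5 in the depth-limited comparison. SCN8A, the subunit of mature axon initial segments, stood at 410 ± 58.2 CPM against 390 ± 27.5 (adjusted p = 0.90). Of 18 potassium and HCN channel genes, 3 were higher and 6 lower. The 3 were KCNA4 (1.33 ± 0.29), KCNC1 (0.59 ± 0.12), a Kv3 channel of fast-spiking neurons, and KCND3 (0.43 ± 0.13). Among the lower were KCNA6 (-1.86 ± 0.43) and KCNH7 (-0.98 ± 0.11), an ERG-type channel at 972 ± 319 CPM against 1773 ± 174. Of 13 voltage-gated calcium channel genes, 7 were lower and 1, CACNA2D3, was higher. The 7 became 2 with DESeq2, 3 without the block or without Infancy 3, 4 without Infancy 2 or Mature 1, and 2 of 8 in the depth-limited comparison. CACNA2D3 did not pass without the block, with 3 or more SPP1 UMIs, with no filter on low counts or in the depth-limited comparison, in each of which 0 were higher.

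Of 15 glutamate receptor genes, 3 were higher and 7 lower, against 4.4% and 6.37% of all features. They were 3 and 5 with DESeq2, and 2 and 4 of 12 in the depth-limited comparison. The higher were 2 with at least 20 nuclei per retina, with 3 or more SPP1 UMIs and without the block. They were also 2 without Infancy 1, Infancy 3 or Mature 1. With no filter on low counts 1 was higher and 8 lower, of 16. The AMPA receptor subunit GRIA3 stood at 328 ± 18.5 CPM against 215 ± 22.7 (0.57 ± 0.10, adjusted p = 1.19e-04), while GRIA1 was lower, at 30.2 ± 29.7 against 50.6 ± 11.6 (-1.23 ± 0.29). GRIA4 and the metabotropic receptor GRM8 were also higher, by 0.30 ± 0.09 and 0.54 ± 0.12, and GRM5 was lower by -1.16 ± 0.15. Of 12 GABA and glycine receptor genes 0 were higher and 4 lower, GABRA2, GABRB2, GABRG1 and GLRA2, and 2 lower without Infancy 2 or without the block. In the depth-limited comparison 8 of these could be tested and 0 passed.

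Structural and energy genes are read against the 4.4% of all features that were higher. Of 12 neurofilament and axon cytoskeleton genes 4 were higher and 0 lower, NEFH, NEFM, the microtubule protein MAP1B (0.38 ± 0.09) and the dynein heavy chain DYNC1H1 (0.44 ± 0.11). The 4 became 3 without the block, 2 of 13 with no filter on low counts and 2 of 11 in the depth-limited comparison. Of 11 mitochondrial and energy regulators 3 were higher, the nuclear receptor ESRRG (1.85 ± 0.32), PPARGC1A (0.30 ± 0.10, adjusted p = 0.048), a coactivator of mitochondrial genes, and CKB, brain creatine kinase (0.38 ± 0.11). That count fell to between 0 and 2 under several alternatives, and to 0 of 6 in the depth-limited comparison. The study named 9 regulators for its own SPP1 clusters, chosen on these samples, so their direction is not independent here. Of them 3 were higher and 0 lower: RUNX2, a runt factor of bone formation, at 259 ± 107 CPM against 152 ± 29.5 (0.62 ± 0.12, adjusted p = 1.98e-04, higher in 7 of 7 retinas), PPARGC1A and MEIS1 (0.38 ± 0.12). The 3 became 1 without Infancy 3, with DESeq2, without the block and with 3 or more SPP1 UMIs, and 0 with no filter on low counts.

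Genes of the osteopontin and growth pathways were listed as well. Of 14 osteopontin receptors and relatives only 2 were high enough to test, and neither passed. ITGAV, the alpha-V integrin, stood at 24.9 ± 17.1 CPM against 23.0 ± 3.70 (adjusted p = 0.98), and ITGB1 at 62.2 ± 30.3 against 79.4 ± 6.58 (adjusted p = 0.36). Of 15 genes of growth and mTOR signalling 2 passed (13.3%, near the 10.8% of all features), 0 higher and 2 lower. These were the insulin-like growth factor receptor IGF1R (-0.35 ± 0.11) and NTRK2, the receptor for brain-derived neurotrophic factor (-0.55 ± 0.11). The 2 became 1 with DESeq2, without the block, with at least 20 nuclei per retina and with 3 or more SPP1 UMIs. That count was also 1 without Infancy 2, Mature 1, Senile 1 or Senile 2, and 1 of 11 in the depth-limited comparison. Of 10 genes of axon injury and regeneration 1 passed (10%), GAP43, which was lower. Of the glaucoma genes that the DisGeNET database lists 249 were tested, 19 were higher and 20 lower, 15.7% against the 10.8% of all features. They were 13 and 13 with DESeq2, 12 and 14 of 251 without Infancy 3 and 10 and 11 of 142 in the depth-limited comparison. With 3 or more SPP1 UMIs they were 10 and 22 of 234, and with no filter on low counts 12 and 39 of 545.

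**Figure D3:**
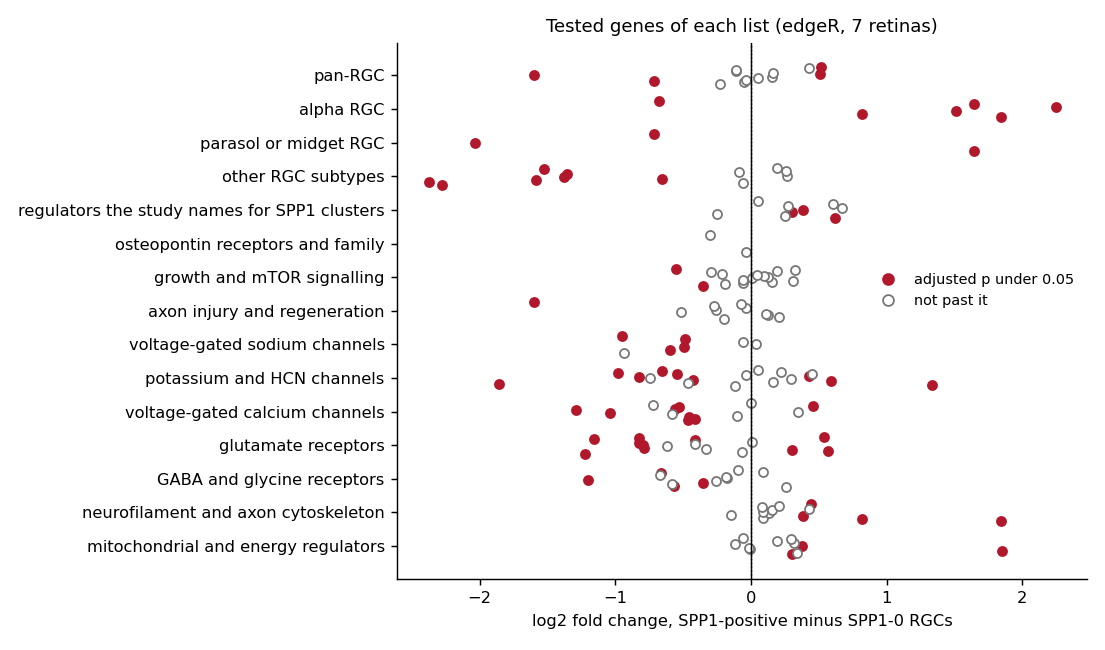
Log2 fold change between SPP1-positive and SPP1-0 RGCs (x axis) for each tested gene of 15 lists (y axis), from edgeR over 7 retinas. Filled points passed an adjusted p of 0.05, open points did not, and the dotted line is the median of all features. Of the alpha RGC genes 5 of 6 lie above 0, and of the other RGC subtypes 7 of 12 are filled, all below 0.

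Markers of other retinal classes were followed in the same nuclei. SPARCL1, listed here for astrocytes, was higher, at 464 ± 167 CPM against 151 ± 30.3 (1.51 ± 0.12, adjusted p = 4.63e-12), in 7 of 7 retinas. The summed level of the 4 astrocyte markers was 244 to 705 CPM against 140 to 224. The other 3 were low in SPP1-positive RGCs: pooled, AQP4 was at 1.33 CPM, PAX2 at 0.667 and SLC14A1 at 6.66, against 350, 536 and 4001 CPM in astrocyte nuclei. The 3 cone markers summed to 0 to 18.8 CPM, the 3 Müller markers to 0 to 26.4 CPM, the 4 rod markers to 0 to 37.5 CPM, and all 4 microglial markers were at 0. The 2 horizontal cell markers summed to 59.7 to 131 CPM against 47.5 to 91.7, higher in 6 of 7 retinas, and the 1 that could be tested did not pass. The 6 amacrine markers summed to 803 to 1349 CPM against 773 to 1101, higher in 5 of 7 retinas. Of 4 amacrine markers tested, 1 was higher, GRM8. TFAP2A stood at 10.0 and SLC6A9 at 18.7 CPM pooled, against 232 and 391 in amacrine nuclei. For bipolar cells the sums were 925 to 1763 against 1001 to 1252 CPM, higher in 5 of 7 retinas. Of 2 bipolar markers tested, 1 was higher, NETO1. CA10 stood at 1046 CPM pooled in SPP1-0 RGCs, and at 1102 and 1074 with 2 and with 3 or more SPP1 UMIs. GRIK1 was at 0 in both groups of RGCs. The part of the amacrine, bipolar and horizontal sums in these results was not tested.

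TBR1 and IL1RAPL2, both on the alpha list, were higher in SPP1-positive RGCs. IL1RAPL2, a relative of the interleukin-1 receptor accessory protein, stood at 17.5 CPM in Infancy 1, 49.2 in Infancy 2, 51.4 in Infancy 3, 70.6 in Mature 1, 23.5 in Mature 2, 90.7 in Senile 1 and 93.8 in Senile 2, against 5.81 to 17.4 in SPP1-0 RGCs. The 2 groups of RGCs did not overlap, though Infancy 1 came close, and the log2 difference was 2.25 ± 0.29 (adjusted p = 2.47e-07). TBR1 stood at 5.82, 26.4, 41.1, 44.9, 58.8, 45.4 and 18.8 CPM in the same order of retinas, against 6.44 to 20.5. It was higher in 5 of 7 retinas, not in Infancy 1 and Senile 2 (1.65 ± 0.31, adjusted p = 1.84e-04).

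Most nuclei held neither gene. Of the 208 SPP1-positive RGCs 32 had TBR1 alone, 34 IL1RAPL2 alone, 5 both and 137 neither. If the 2 genes were independent 6.94 nuclei would hold both, so a separation of the 2 genes was not detectable at this depth. TBR1 was found in 17.8% of SPP1-positive RGCs, 9.78% of RGCs with 1 SPP1 UMI and 5.35% of SPP1-0 RGCs, and IL1RAPL2 in 18.8%, 10.1% and 4.01%. Among the 196 nuclei of the 7 retinas TBR1 was found in 33.3% of those with SST and 7.52% of those without, and IL18R1 in 50.8% and 14.3%. For IL1RAPL2 the values were 22.2% and 15.0%. Deeper nuclei hold more of every gene, so these shares are descriptions. Of the 196 nuclei 159 (81.1%) held a UMI of at least 1 of NEFH, SST, TBR1, IL1RAPL2, PVALB, KCNG4, TACR3 and IL18R1, and 37 held none of the 8. SST, TACR3 and IL18R1 were taken from the genes most raised in these same nuclei, so a high share follows in part from the choice. The share in SPP1-0 RGCs was not computed. PVALB alone was found in 14.75% of them.

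SPP1-positive RGCs with TBR1 alone and with IL1RAPL2 alone could be compared in 2 retinas, Infancy 2 (11 and 11 nuclei) and Infancy 3 (6 and 7), with the retina as a block and without a test of TBR1, IL1RAPL2 or the genes of the rule. Of 1073 features 79 passed (7.36%), 34 higher (3.17%) and 45 lower (4.19%) in TBR1-positive nuclei. That count was 1 to 50 under the alternatives, and 5 with DESeq2. LRP1B, a lipoprotein receptor family member, the tyrosine kinase receptor ERBB4 and DAB1, an adaptor of reelin signalling, were lower in TBR1-positive nuclei. SEMA5A, a semaphorin, CSMD3, the kainate receptor subunit GRIK2 and TENM3, a teneurin adhesion molecule, were higher.

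Pooled over the 2 retinas LRP1B was at 232 CPM in TBR1-positive and 2700 CPM in IL1RAPL2-positive nuclei (log2 difference -3.91 ± 0.29, edgeR adjusted p = 1.72e-34). With 2 retinas, such a p says little of the spread between animals. The call of LRP1B was lost with no filter on low counts, with DESeq2 and without called doublets. In SPP1-positive RGCs of the other retinas, 15 and 16 nuclei that the fit did not use, it was at 115 and 4239 CPM, and in RGCs with 0 or 1 SPP1 UMI, 197 and 155 nuclei, at 585 and 2495 CPM. ERBB4 was at 66.4 and 521 CPM in the fitted nuclei, 99.9 and 471 in the other retinas and 49.0 and 406 in RGCs with 0 or 1 SPP1 UMI. Both genes were lower with TBR1 in all 3 sets. ERBB4 lost its call in the same 3 settings and without the block. CSMD3 stood at 1851 and 332 CPM, 1844 and 420, and 1525 and 734 in the same order, and SEMA5A at 515 and 39.5, 300 and 58.9, and 342 and 121. CSMD3 lost its call with no filter on low counts, and SEMA5A with no filter and without called doublets, while DESeq2 gave it no adjusted p. Of the 24 named genes 24 had the direction of the fit in the pooled levels of the other retinas, and 24 in RGCs with 0 or 1 SPP1 UMI. The 24 were chosen for large differences in the fit, and the share over all 1073 features was not computed. The pooled levels carry no test, and their intervals cover counting error only, not the spread between retinas. In RGCs with 0 or 1 SPP1 UMI the counting intervals overlapped for PLCL1 (171 and 162 CPM), ADGRL2 (235 and 244) and KITLG (118 and 93.6). In the other retinas they overlapped for 6 of the 24, GRIK2, LRRC7, SHISA6, SOX6, KITLG and MMP16.

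The share of SPP1-positive RGCs among gated RGCs was compared between stages over all 15 retinas. Intervals are 95% Clopper-Pearson intervals and cover counting error only. Where no RGC was SPP1-positive, the limit given is 3 counts of the RGCs of that retina. In infancy 20 of 375 RGCs were SPP1-positive in retina 1 (5.33%, 3.29 to 8.12), 73 of 583 in retina 2 (12.5%, 9.95 to 15.5), 41 of 478 in retina 3 (8.58%, 6.23 to 11.5), 2 of 75 in retina 4 (2.67%, 0.325 to 9.30) and 1 of 29 in retina 5 (3.45%, 0.0873 to 17.8). Infancy 2 stood highest of the 15 retinas. Mature retinas gave 18 of 508 (3.54%, 2.11 to 5.54), 20 of 478 (4.18%, 2.57 to 6.39), 4 of 69 (5.80%, 1.60 to 14.2), 0 of 29, which allows up to 10.3%, and 0 of 18, which allows up to 16.7%. Senile retinas gave 12 of 448 (2.68%, 1.39 to 4.63), 12 of 359 (3.34%, 1.74 to 5.77), 3 of 124 (2.42%, 0.502 to 6.91), 0 of 88, which allows up to 3.41%, and 2 of 121 (1.65%, 0.201 to 5.84). The 3 stages overlapped.

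The stage means were 6.51% ± 4.06 (SD, n = 5) in infancy, 2.71% ± 2.60 in mature and 2.02% ± 1.28 in senile retinas. No difference passed after adjustment over the 3 comparisons. With RGCs of 1 or more SPP1 UMIs counted instead, mature and senile retinas each differed from infancy by -10.7 points (exact permutation adjusted p = 0.048 for each), and without Infancy 4 senile retinas differed by -5.45 points (exact permutation adjusted p = 0.024). The difference was -4.49 points for senile minus infant retinas (exact two-sided permutation test over 252 splits, p = 0.024, adjusted p = 0.071), -3.804 points for mature minus infant (exact permutation p = 0.13, adjusted p = 0.19, and -2.30 points without Infancy 2), and -0.686 points for senile minus mature (exact permutation p = 0.60). The smallest p this design allows is 0.0079. Within the 7 libraries labelled 5.0.1 the means were 8.81% ± 3.60 (n = 3), 3.86% ± 0.45 (n = 2) and 3.01% ± 0.47 (n = 2), and every infant retina there stood above every mature and senile one. The exact permutation p was 0.2 for both differences from infancy, where 3 against 2 retinas allow no p under 0.1. Within the libraries labelled 7.0.1 they were 3.06% ± 0.55 (n = 2), 1.93% ± 3.35 (n = 3) and 1.36% ± 1.24 (n = 3), with overlap. The order of the means was the same in both sets, and the difference between senile and infant retinas was -5.80 points in the first and -1.70 in the second. Pooled over nuclei, the libraries labelled 7.0.1 gave 2.9% in infancy (3 of 104) and 3.4% in mature retinas (4 of 116). Senile retinas gave 1.5% there (5 of 333), so the order of mature and infant retinas rests on how few nuclei are weighted. Fewer SPP1-positive RGCs and less SPP1 per RGC cannot be told apart in this share, which rests on a minimum of 2 UMIs. Depth differed too. In the libraries labelled 5.0.1 gated RGCs held a median of 5252 to 5660 UMIs in infant, 5784 to 6264 in mature and 3161 to 4940 in senile retinas. In those labelled 7.0.1 the medians were 11500 to 15040, 9813 to 18300 and 4880 to 10600. After thinning to 2000 UMIs the mean shares were 1.37% in infancy, 0.298% in mature and 0.286% in senile retinas. Amacrine nuclei with 2 or more SPP1 UMIs were 0.559%, 1.16% and 0.483% in Infancy 1 to 3. They were 0.052% and 0.216% in Mature 1 and 2, and 0.239% and 0.416% in Senile 1 and 2. In the libraries labelled 7.0.1 they were 0% to 0.27%, highest in Senile 3. Infancy 2 was highest in both classes, and a link between the 2 was not tested.

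**Figure D4:**
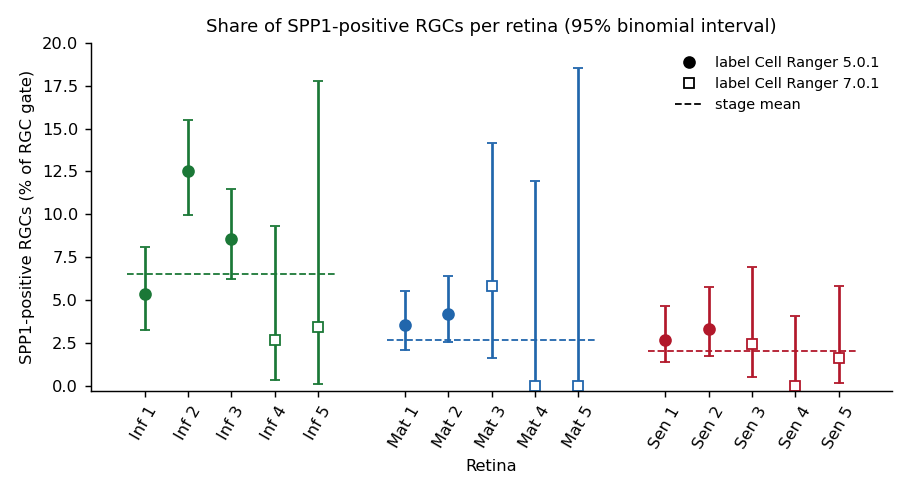
Share of SPP1-positive RGCs among gated RGCs in % (y axis) for each of 15 retinas (x axis) in 3 stages, with 95% binomial intervals. Filled circles are libraries labelled Cell Ranger 5.0.1, open squares those labelled 7.0.1, and dashed lines are stage means. Infancy 2 is highest at 12.5%. Of the retinas at 0%, Mature 4 and Mature 5 have wide intervals, and that of Senile 4 ends at 4.105%.

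Stage differences inside the SPP1-positive RGCs were tested over the same 7 retinas, 3 infant, 2 mature and 2 senile, for 3717 features. Senile and infant retinas differed in 3 features (0.0807% of those tested), mature and infant in 2 (0.0538%) and senile and mature in 1 (0.0269%), with 287, 233 and 268 at an unadjusted p under 0.05. DESeq2 called 6 features between senile and infant retinas. The genes that marked the SPP1-positive RGCs were not among the called. SST stood at 130 ± 87.6 CPM in infant (n = 3), 100.2 ± 32.8 in mature (n = 2) and 224 ± 108 in senile retinas (n = 2), with an adjusted p of 0.90 between senile and infancy. NEFH stood at 84.5 ± 34.3, 57.5 ± 26.8 and 56.5 ± 0.30 CPM (adjusted p = 0.68). The senile groups hold 12 nuclei per retina.

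GRIN2A, a subunit of NMDA receptors, was lower in senile retinas. It stood at 728, 799 and 818 CPM in the SPP1-positive RGCs of Infancy 1, 2 and 3, 1001 and 1152 in Mature 1 and 2, and 340 and 131 in Senile 1 and 2. SPP1-0 RGCs of the same retinas were at 970, 802 and 686, at 1168 and 861, and at 874 and 926 CPM. The senile retinas stood below all others among SPP1-positive RGCs and inside their range among SPP1-0 RGCs. The log2 difference was -1.89 ± 0.33 from infancy (n = 2 and 3 retinas, edgeR adjusted p = 0.037) and -2.24 ± 0.35 from mature (adjusted p = 0.029). It rested on 37 GRIN2A UMIs in the senile nuclei, and was lost from infancy without Infancy 1, 2 or 3 or Senile 2, and from mature without Infancy 1, 2 or 3, Mature 2 or Senile 2.

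SCN9A, a voltage-gated sodium channel subunit, was higher in senile than in infant retinas. It stood at 75.7, 84.3 and 54.8 CPM in infant, 244 and 129 in mature, and 454 and 244 in senile SPP1-positive RGCs (senile against infancy 2.06 ± 0.35, adjusted p = 0.037). In SPP1-0 RGCs the infant retinas lay between 90.5 and 118 and the senile at 245 and 218 CPM, so the same order was seen there, and the difference of the stage effect between the 2 groups of RGCs did not pass (0.89, adjusted p = 0.45). The call was lost without Infancy 1, 2 or 3 or Senile 1. IFI6, an interferon-induced protein, was lower in mature than in infant retinas (-2.31 ± 0.37, adjusted p = 0.020), with 205 to 323 CPM in infancy and 64.2 and 47.0 in mature retinas. SPP1-0 RGCs showed the same order, at 198 to 358 and at 61.8 and 91.4 CPM, and the call was lost without Infancy 2, Mature 1 or Mature 2, without called doublets and with at least 20 nuclei per retina.

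SPTLC1li7, a numbered copy of SPTLC1, which encodes a subunit of the first enzyme of sphingolipid synthesis, is named here although the rule for named genes leaves numbered copies out. It was chosen after its values were seen. It stood at 29.1, 31.6 and 3.42 CPM in infant, 308 and 270 in mature, and 726 and 732 in senile SPP1-positive RGCs (senile against infancy 4.72 ± 0.38, adjusted p = 3.52e-06, mature against infancy 3.53 ± 0.39, adjusted p = 3.09e-04). SPP1-0 RGCs held 7.28 to 15.7, 116 to 214 and 313 to 446 CPM, so the stages were as separate there. Counts of near-identical copies may be split between them, and its level is uncertain for that reason.

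**Figure D5:**
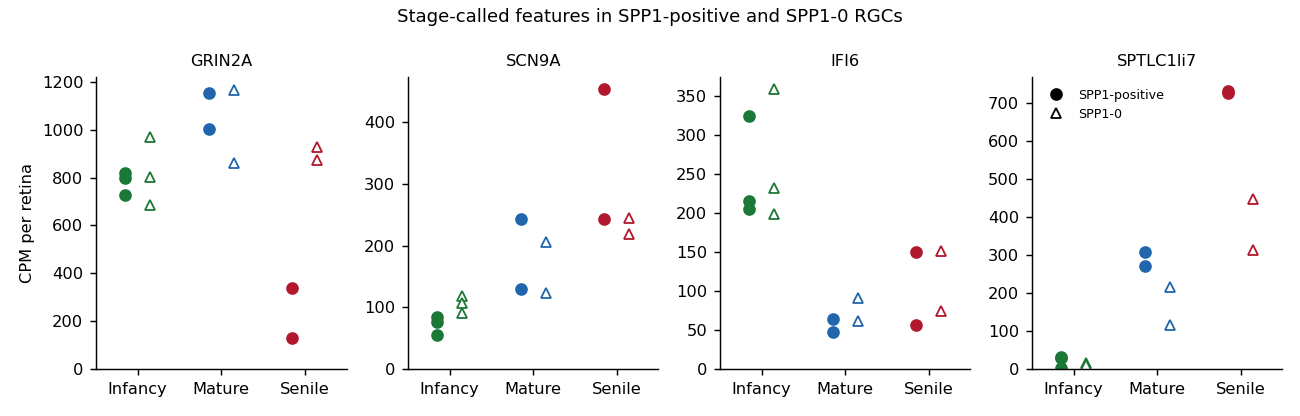
Level in CPM per retina (y axis) of the 4 features called between stages, by stage (x axis), in SPP1-positive RGCs (filled circles) and SPP1-0 RGCs (open triangles) of 7 retinas. GRIN2A is 131 and 340 CPM in the senile SPP1-positive RGCs, against 874 and 926 in the SPP1-0 RGCs of the same retinas.

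The difference of the stage effect between SPP1-positive and SPP1-0 RGCs was tested directly over 11016 features, with the retina as a block. Between senile and infant retinas 23 features differed (0.209%), 6 of them relatively higher in senile SPP1-positive RGCs (0.0545%) and 17 lower (0.154%). Between senile and mature 21 differed (0.191%), 6 higher (0.0545%) and 15 lower (0.136%). Between mature and infant retinas 1 differed (0.00908%). At an unadjusted p under 0.05 the counts were 743, 679 and 494. The median over all features was -0.22 and -0.18 on the log2 scale in the senile contrasts, so smaller negative values lie near the background. GRIN2A differed by -2.06 ± 0.30 between senile and infancy (edgeR adjusted p = 2.10e-08) and by -2.10 ± 0.32 between senile and mature (edgeR adjusted p = 1.78e-07). It kept both calls without each infant retina in turn, but not with DESeq2 or without the block. Fits left with 1 senile retina gave -3.23 and -3.22 without Senile 1, and -1.58 in both contrasts without Senile 2.

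Lower in senile SPP1-positive RGCs beyond the SPP1-0 RGCs were also SORCS1 and the cadherin CDH6. SORCS1 was at 297, 112 and 58.2 CPM in infant, 154 and 265 in mature, and 0 and 18.8 in senile SPP1-positive RGCs, while SPP1-0 RGCs lay between 365 and 464 CPM in all 7 retinas. CDH6 was at 93.1, 112 and 34.2, at 148 and 112, and at 11.3 and 0 CPM, against 47.6 to 107 in SPP1-0 RGCs. Each rested on 1 UMI in the 24 senile nuclei. Between senile and infancy SORCS1 lost its call without Senile 1, and CDH6 without Infancy 2, Senile 1 or Senile 2. With DESeq2 the counts of features were 1 between senile and infancy and 0 in the other 2 contrasts, and without the retina as a block they were 0 in all 3.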

How the data were processed

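The deposited matrices hold UMI counts per feature and barcode, which the authors made with Cell Ranger (5.0.1 or 7.0.1 per the labels, 6.1.2 or 7.0.1 per the file headers) on a TS genome. Whether intronic reads were counted is not given in the sources used here. They list 83605 features under the authors' own gene models (SPP1 is TSDBGID.14885). Only 3 features carry the mitochondrial prefix, so that limit rests on them. No coordinates or sequences are given, since no genome of this build was used here.

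Scripts (Python 3.11.15, scipy 1.17.1, R 4.3.3) applied the rule to every nucleus and summed UMIs per retina over SPP1-positive and SPP1-0 RGCs. The minimum of SPP1-positive nuclei per retina was 10, and 5 where fewer than 3 retinas of a stage passed. The lower one applied, and the same 7 retinas passed both. edgeR 4.0.16 (TMM scaling, its filter on low counts, quasi-likelihood test, Benjamini-Hochberg threshold 0.05) was the main test, with the retina as block where both groups came from it. The Cell Ranger version was constant in those 7 retinas and left the model. The 4 genes of the rule were not tested, nor TBR1 and IL1RAPL2 between the nuclei they defined. Shares were compared by exact permutation of retinas. DESeq2 1.42.0, other scaling, filters, depth limits, doublet removal (a caller based on simulated doublets) and leaving out each retina were alternatives.

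Genes named are those of 15 fixed lists that passed or define a class, and up to 12 per direction with the largest log2 difference among single named genes past the threshold, with 50 CPM or more in the higher group and the same direction in 80% of retinas (paired) or no overlap (stages). The nuclei and lists were chosen with earlier results of these data known. A few genes of these lists are not reported here. Sex was not in the labels and not in the models.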

Additional observations from a re-analysis of the deposited data

Results flagged for a closer look

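The stage difference was not the same in SPP1-positive and SPP1-0 RGCs, by edgeR's test of the difference itself with the retina as a block, for 23 features between senile and infant retinas, 21 between senile and mature, and 1 between mature and infant. The named genes follow as log2 differences, with negative values lower in the older SPP1-positive RGCs relative to SPP1-0 RGCs of the same retinas. The senile values rest on 24 SPP1-positive nuclei of 2 retinas.

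Between senile and infancy BRINP3, an inhibitor of neural proliferation, differed by 1.85 and the latrophilin ADGRL2 by 1.63. SORCS1 differed by -4.53, CDH6 by -4.03, GULP1, an engulfment adaptor, by -2.94, PPP1R1C, a phosphatase inhibitor, by -2.83, the thyroid hormone receptor THRB by -2.45, ROBO1 by -2.23, BNC2 by -2.21, SORCS3 by -2.13, GRIN2A by -2.06, the receptor tyrosine kinase ALK by -2.02, ZBTB20 by -1.77 and the metabotropic glutamate receptor GRM7 by -1.40. Without the retina as a block none of these 14 passed, and with DESeq2 only ADGRL2 did. Of the 14, 8 lost their call without Senile 1, 8 without Senile 2, 6 without Infancy 1, 4 without Infancy 2, 3 without Infancy 3 and 1 without Mature 2. With each retina left out BRINP3 ran from 1.18 to 2.14 (edgeR adjusted p up to 0.77), BNC2 from -10.55 to -1.49 (up to 0.79) and GULP1 from -10.19 to -1.81 (up to 0.59). SORCS1 ran from -10.29 to -3.30, CDH6 from -9.65 to -3.44, PPP1R1C from -10.41 to -1.93, SORCS3 from -10.34 to -1.43, ZBTB20 from -2.75 to -1.13 and GRM7 from -2.48 to -0.83. The most negative of these, from BNC2 at -10.55 to CDH6 at -9.65, come from fits left with 1 senile retina and are no bound.

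Between senile and mature NFIA, a nuclear factor, differed by 1.79. SORCS1 differed by -4.90, CDH6 by -4.71, LYPD6B by -3.40, SORCS3 by -2.93, ROBO1 by -2.74, THRB by -2.67, CNTN3 by -2.51, GRIN2A by -2.10, ALK by -2.07, the glypican GPC6 by -1.58, CNTN5 by -1.33 and IL1RAPL1 by -1.33. None of these 13 passed with DESeq2 or without the block, and 6 lost their call without Senile 1, 5 without Mature 2, 4 without Senile 2 and 3 without Mature 1. NFIA was at 0.11 without Senile 1 (edgeR adjusted p up to 0.99) and 2.46 without Senile 2. SORCS3 ran from -11.1 to -2.14, SORCS1 from -10.62 to -3.63, CDH6 from -10.27 to -4.07 and CNTN3 from -4.20 to -1.96, with the lowest value of each again from a fit with 1 senile retina. Between mature and infancy ADARB2, an RNA-editing enzyme relative, differed by 1.48, and lost its call without Infancy 2, Infancy 3 or Mature 2, with DESeq2, with no filter on low counts, with no block and without called doublets.

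Outside the RGC gate 204 nuclei held 2 or more SPP1 UMIs, against 208 inside it. RBPMS was at 0 in 153 of them and SLC17A6 in 118, and ARR3 was above 0 in 68, which for 35 was the only reason they were left out. Both RBPMS and SLC17A6 were at 0 in 102, of which 72 fell in the amacrine gate and 16 in no class. In the 7 retinas that was 0.452% of amacrine nuclei.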

How the results depend on the processing

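Against SPP1-0 RGCs 911 features passed. The count was 594 with no replicate block, 396 with both groups between the quartiles of depth, and 608 (without Infancy 2) to 897 with each retina left out. The part that was higher, 372 of 911, was 203 of 1294 with no filter on low counts and 188 of 708 with SPP1 at 3 or more UMIs. All 24 named genes kept direction and call in every setting that tested them, though the depth-limited one could test only 15 of the 24. Between TBR1-positive and IL1RAPL2-positive nuclei 79 passed in the main test, 5 with DESeq2, 50 with DESeq2's size factors in edgeR, 1 with no filter on low counts, 11 with no replicate block and 4 without called doublets. Leaving out a retina could not be fitted there.

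Within SPP1-positive RGCs the counts for mature against infancy (2), senile against infancy (3) and senile against mature (1) were 10, 53 and 15 with no filter on low counts. They were 1, 1 and 0 with the replicate number as a block, where GRIN2A, SCN9A and IFI6 lost their calls. The numbers come from the sample titles, which give no pairing. Correlations of same-numbered retinas (-0.10 to 0.072) cannot decide it, since 2 retinas of a stage deviate from their mean by equal and opposite amounts. DESeq2 gave 6 for senile against infancy. For mature against infancy the count was 1 without called doublets and 1 with at least 20 nuclei per retina, which left no senile retina. Leaving out each retina gave 1 to 4, 1 to 6 and 0 to 1.

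For the difference of the stage effect, mature against infancy (1) gave 5 with 20 nuclei per retina, 2 with DESeq2's size factors and 3 without doublets. It gave 0 with DESeq2, with no filter and with no replicate block, and 1 to 5 with each retina left out. Senile against infancy (23) gave 1 with DESeq2, 0 with no replicate block and 14 (without Infancy 1) to 26 with retinas left out. Senile against mature (21) gave 0 with DESeq2, 0 with no replicate block, and 16 to 24.

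For the share, counting RGCs with 1 or more SPP1 UMIs gave -10.7 points from infancy for mature and senile retinas, and senile 0.0082 points above mature. Senile minus infancy was -1.09 points after thinning to 2000 UMIs (exact permutation adjusted p = 0.31), -0.227 of all passing nuclei (0.26) and -1.78 with 3 or more SPP1 UMIs (0.42). An exact permutation test by sign flips within replicate numbers, a replicate block, gave p = 0.063 for both differences from infancy, the smallest possible. Senile against infancy ran from -5.45 without Infancy 4 (exact permutation adjusted p = 0.024) to -2.99 without Infancy 2, mature against infancy from -4.77 to -2.30, and senile against mature from -1.36 to 0.087 points without Mature 3. Permuting within the 2 sets of libraries gave adjusted p = 0.12 for senile against infancy. The 7 libraries labelled 5.0.1 alone, an alternative chosen after seeing the data, allow no p under 0.1 for a difference from infancy. The causes of these changes were not tested. With 12 nuclei in each senile retina and 0 to 4 SPP1-positive RGCs in 8 libraries, the stage comparisons rest on few nuclei.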
